A study of Mus musculus with 14 samples.

Results

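ETS1-bound acetylated gene ends are stretches of chromatin at the start or end of a protein-coding gene that carried histone H3 acetylated at lysine 27 (H3K27ac) in every library and an ETS1 peak in both wild-type ETS1 libraries. Peaks of the 4 H3K27ac lists were merged where they shared at least 1 bp, which gave 36466 regions, of which 16043 were called in all 4 lists. Of these, 8093 had their midpoint within 2 kb of either end of a RefSeq protein-coding gene on GRCm38, and 5888 of the 8093 (72.8%) overlapped an ETS1 peak in both WT libraries. The other acetylated gene ends comprised 1405 with an ETS1 peak in 1 WT library and 800 with none in WT, and 1824 shared acetylated regions farther from genes were ETS1-bound by the same criterion. The members were thus chosen by measured values, the H3K27ac calls of both genotypes and the ETS1 calls of WT cells, and these calls are given as a description.

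Peaks came from CUT&RUN on mouse Th1 cells of 2 genotypes, Ets1-SE-KO (strain C57BL/6J-Ets1-SE-KO) and WT (C57BL/6J). CUT&RUN cuts chromatin around an antibody in permeabilised cells and sequences the released fragments. In both genotypes naive CD4+ T cells from spleen were cultured for 6 days on anti-CD3 with soluble anti-CD28, with IL-12 at 10 ng/mL and IL-2 at 1 ng/mL, and no age of the mice is given. Antibodies to ETS1, CTCF and H3K27ac had 2 libraries per genotype, and IgG, the control antibody, had 1 library per genotype. By their titles the 2 KO libraries of an antibody were biological replicates and the 2 WT libraries technical replicates, so the spread between WT libraries is technical. SE in the KO name stands for a super-enhancer at the Ets1 locus, which was deleted instead of the coding sequence, and the level of ETS1 protein was not measured here.

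ETS1 is a transcription factor of the ETS family, whose members bind a GGAA core through a winged helix-turn-helix domain, and it is highly expressed in T cells. Promoters of broadly expressed genes often carry ETS motifs close to the start site, where several family members, GABPA among them, can bind the same letters. H3K27ac marks active promoters and enhancers, and CTCF is the zinc-finger protein that anchors chromatin loops and also sits at many promoters.

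The lists differed in length. Those of ETS1 held 40705 and 9344 peaks in the KO libraries against 14013 and 23419 in the WT libraries. CTCF lists held 40502 and 39345 peaks in KO cells against 33144 and 31368 in WT cells, and H3K27ac lists 26465 and 28647 peaks in KO cells against 24711 and 24581 in WT cells. The IgG lists held 285 peaks in KO cells and 2 in WT cells. The lists carry no read counts, so depth is unknown, and whether depth or background moved list length was not tested. Of 10 T cell and Th1 markers, 7 had H3K27ac at a gene end in all 4 libraries, among them Cd3e, Cd4 and Tbx21, whereas Stat4 and Cxcr3 had none and Ifng had 154 bp in WT library 1 alone. Of 15 markers of B, myeloid, CD8 T, NK and erythroid cells, 4 had it in all 4 libraries (Cd79a, Csf1r, Cd8b1 and Klf1), and the Cd79a and Klf1 regions are members. With 2 libraries against 2, an exact two-sided permutation test cannot give a p below 0.333, and because the WT libraries repeat 1 biological sample such a p compares libraries, not animals.

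The strongest members, ranked by ETS1 peak significance in WT, lay at the ends of Qtrt2, Zfp866, Fntb, Mynn, Taf8, Cirbp, Armh3, Usp5, Ccdc59 and Rwdd2b. Each was above percentile 99.8 of both WT lists, where the percentile is a peak's rank by the authors' −log10 p within its own list and 100 is the top. Lists differ in length, so a percentile ranks a peak within 1 list and does not measure binding between libraries. The median ETS1 percentile of members with a peak was 90.7 and 64.5 in the KO lists against 71.5 and 82.0 in the WT lists. Qtrt2 encodes a subunit of the tRNA-guanine transglycosylase that inserts queuine, Fntb the beta subunit of farnesyltransferase, Taf8 a subunit of the general factor TFIID, Cirbp a cold-inducible RNA-binding protein and Usp5 a deubiquitinase. The bases before the start of 5 of these genes, picked after their sequences were seen to show promoters with 3, 1 and no matches, are printed in lower case with capitals marking each match to CCGGAA or its reverse complement, which holds the GGAA core. They are the 150 bases upstream of the RefSeq start on GRCm38.p6, written 5′ to 3′ on the strand of the gene: chr16:43889677-43889826 (minus strand) for Qtrt2, chr8:69774912-69775061 (minus) for Zfp866, chr3:30601937-30602086 (plus) for Mynn, chr19:45998489-45998638 (minus) for Armh3 and chr10:105841329-105841478 (plus) for Ccdc59.
Qtrt2: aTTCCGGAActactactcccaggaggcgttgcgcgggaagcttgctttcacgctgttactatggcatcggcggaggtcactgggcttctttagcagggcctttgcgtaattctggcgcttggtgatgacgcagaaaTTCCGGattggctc
Zfp866: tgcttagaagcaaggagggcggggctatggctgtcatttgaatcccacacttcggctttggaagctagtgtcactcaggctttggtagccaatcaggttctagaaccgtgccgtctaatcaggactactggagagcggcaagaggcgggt
Mynn: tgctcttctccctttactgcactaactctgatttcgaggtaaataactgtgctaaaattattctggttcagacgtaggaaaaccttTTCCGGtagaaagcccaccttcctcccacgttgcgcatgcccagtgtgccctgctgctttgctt
Armh3: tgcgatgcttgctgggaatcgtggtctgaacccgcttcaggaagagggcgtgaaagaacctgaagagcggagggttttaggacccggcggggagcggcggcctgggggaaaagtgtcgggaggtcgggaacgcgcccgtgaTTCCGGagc
Ccdc59: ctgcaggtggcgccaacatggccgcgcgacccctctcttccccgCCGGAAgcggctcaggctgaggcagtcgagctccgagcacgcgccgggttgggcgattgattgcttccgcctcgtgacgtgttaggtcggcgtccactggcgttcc

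Qtrt2 had 3 matches, a palindromic pair beginning 149 and 147 bases before the start and another at 14 bases. Mynn had 1 match 64 bases before the start, upstream of the edge of its member region, as are most of the bases printed for it. Armh3 had 1 match 9 bases before its start and Ccdc59 1 match 106 bases before its start. Zfp866 had none in this window, although its ETS1 peak ranked at percentile 99.9 in the weaker WT list. Among members of the gene lists described below, 3 further promoters are shown in the same way because each was the best ranked member of its list. They belong to Rplp2, which encodes a protein of the ribosomal stalk (chr7:141447501-141447650, plus strand), Srsf2, a serine/arginine-rich splicing factor (chr11:116853095-116853244, minus strand), and Gabpa, the ETS family factor itself (chr16:84834974-84835123, plus strand).
Rplp2: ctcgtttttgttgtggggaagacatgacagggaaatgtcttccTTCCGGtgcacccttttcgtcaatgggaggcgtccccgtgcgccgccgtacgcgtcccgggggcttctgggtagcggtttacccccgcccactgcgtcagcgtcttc
Srsf2: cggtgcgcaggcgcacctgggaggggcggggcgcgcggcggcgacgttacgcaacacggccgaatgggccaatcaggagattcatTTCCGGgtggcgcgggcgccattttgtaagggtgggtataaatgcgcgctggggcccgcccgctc
Gabpa: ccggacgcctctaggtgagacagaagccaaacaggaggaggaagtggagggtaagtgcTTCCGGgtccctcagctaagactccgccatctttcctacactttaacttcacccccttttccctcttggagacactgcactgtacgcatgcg

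The match began 107 bases before the start of Rplp2, 65 before that of Srsf2 and 92 before that of Gabpa. The Gabpa region also lies at an end of Atp5j, a subunit of mitochondrial ATP synthase, and ranked at percentiles 97.8 and 97.3 of the KO ETS1 lists against 96.8 and 97.1 of the WT lists. Sequences are from RefSeq.

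ETS1 peaks were also called at most of these ends in KO cells. An ETS1 peak was called at 98.9% of members in KO library 1 and 84.2% in KO library 2, where all 16043 shared acetylated regions gave 69.7% and 45%. Both KO libraries had a peak at 4936 members (83.8%), against 42.9% of all shared regions, and neither had one at 40 members (0.679%), against 28.1% of all shared regions. The shares in both KO libraries were 36.2% at gene ends with a peak in 1 WT library, 6.5% at ends with none in WT and 57.4% at distal bound regions. Singly, KO libraries 1 and 2 had a peak at 87.5% and 38.1% of ends with a peak in 1 WT library. They had one at 54.1% and 8% of ends with none in WT and at 87.0% and 61.1% of distal bound regions. Ends described as without ETS1 thus lack a WT peak, but not always a KO peak. The KO calls had no part in choosing the members, but the classes are set by WT calls, so the order of the classes is given as a description.

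**Figure D1:**
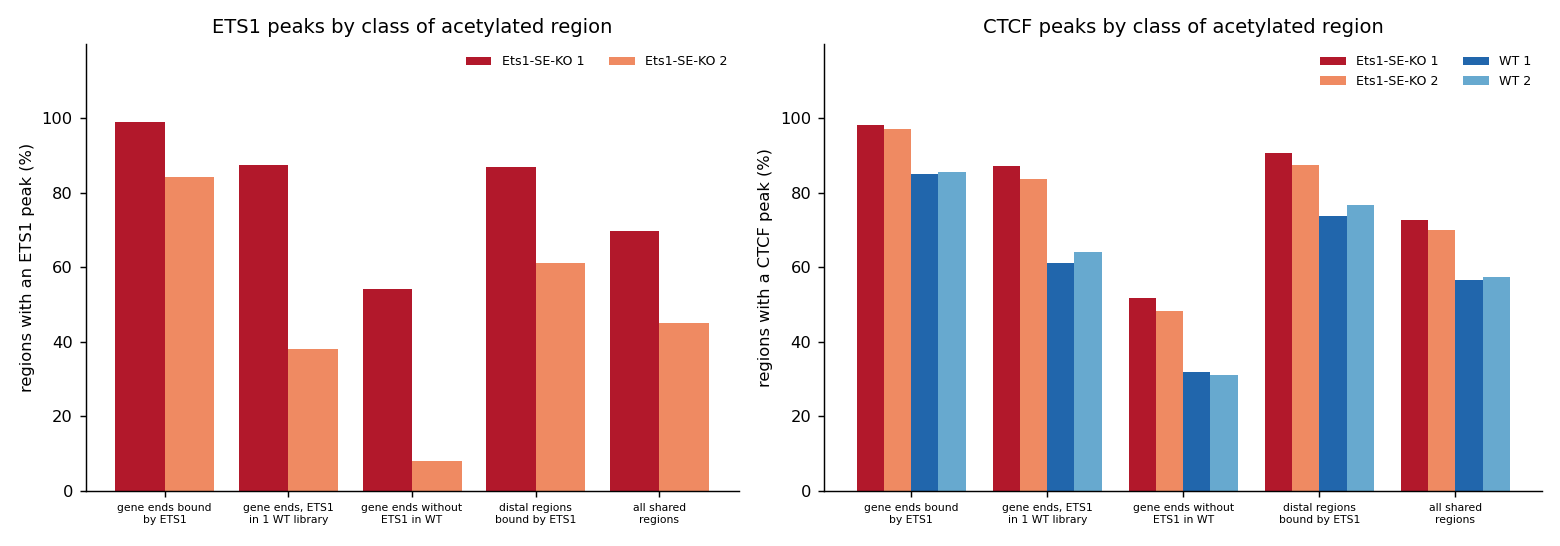
Percentage of regions overlapping an ETS1 peak in each Ets1-SE-KO library (left) and a CTCF peak in each Ets1-SE-KO and WT library (right), for 5 classes of acetylated region. Bars are single libraries; the ETS1-bound gene ends are highest in each library, with ETS1 at 98.9% and 84.2% and CTCF between 85.1% and 98.1%.

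The members held most of the best ETS1 peaks of every list. They held 76.7% and 82.4% of the top 10% of peaks in the KO lists, against 81.1% and 75.5% in the WT lists. For H3K27ac lists the same shares were 74.6% and 76.2% in KO cells against 75.6% and 75.6% in WT cells. The WT ETS1 lists and all H3K27ac lists were used by the rule, so their shares are a description. Of all ETS1 peaks, 15.4% and 55.1% of the KO lists and 43.8% and 26.7% of the WT lists lay in members, a spread that went with list length. IgG peaks touched 129 members in KO cells (2.19%, against 1.25% of all shared regions) and none in WT cells. Of the 285 IgG peaks in KO cells, 45.3% lay in members, as did 44.8% of the top 10% of that list. The length under ETS1 peaks in members was 5.01 and 3.28 Mb in KO cells against 4.02 and 5.41 Mb in WT cells. The genotypes overlapped, since KO library 1 lay between the WT libraries and KO library 2 below both. Members were chosen by ETS1 peaks of the WT libraries, and KO ETS1 peaks had no part, so these lengths are a description.

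The rank of ETS1 within the members carried over between libraries. Across members called in both libraries, Spearman's rho of the list percentiles was 0.66 between the 2 WT libraries (5888 regions), 0.54 between the 2 KO libraries (4936 regions) and 0.58 to 0.65 between a KO and a WT library. Against library 1 of each genotype, over the 4309 to 5888 members called in both lists, rho was 0.18 to 0.36 between ETS1 and CTCF and 0.08 to 0.24 between ETS1 and H3K27ac, with libraries differing in length and regions in width and base composition. When members were divided into 4 equal classes of 1472 by the lower of their WT percentiles, the share with an ETS1 peak in KO library 2 was 65.5%, 82.4%, 91.6% and 97.4% from the lowest class to the highest. In KO library 1 the same classes gave 96.9%, 99.3%, 99.7% and 99.9%.

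The 40 members without an ETS1 peak in KO cells were led by the end shared by Fam126b and Ndufb3, a subunit of respiratory complex I, at percentiles 89.4 and 90.7 of the WT lists. No CTCF library had a peak there either. Next came Polr2a, which encodes the largest subunit of RNA polymerase II, at percentiles 80.3 and 72.7 of the WT lists. Slfn2, a Schlafen gene linked to T cell quiescence, Cnp, Champ1, Ubl7, Commd4, Tnfaip8l2, Abt1 and 3300002I08Rik followed, with weaker WT percentiles between 51.9 and 60.5. Their H3K27ac was called in all 4 libraries by the rule; at Polr2a it covered 1143 and 1630 bp in KO cells against 435 and 945 bp in WT cells.

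Members were mostly promoters. Of the 4836 members whose nearest gene had a strand in the reference, 96.8% lay nearest to a start, compared with 89.0% of ends with ETS1 in 1 WT library and 55.3% of ends without it. No start lay within 2 kb at 97 members (2.01%), against 42.5% of ends without ETS1. Ends of 2 or more genes fell within 2 kb at 1389 members (23.6%), against 17.6% and 21.4% of the ends with ETS1 in 1 and in no WT library. Divergent pairs of starts made up 462 members (7.85%), against 3.63% and 1.25% in those classes, and the Brca1 and Nbr1 pair and the Mcm7 and Ap4m1 pair are examples of members at the ends of 2 genes. The share with 2 or more genes was 17.6%, 21.3%, 23.1% and 32.4% over the 4 ETS1 classes from lowest to highest, and the share of divergent starts 3.8%, 7.00%, 8.56% and 12%. Pairs with a gene of unknown strand or with overlapping genes were counted as not divergent, so all shares of divergent starts are lower bounds.

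The median member was 1267.5 bp wide, against 984 bp and 1054 bp for ends with ETS1 in 1 and in no WT library, and the part of width in the ETS1 calls was not tested. Just inside the limit of 2 kb were the regions at Haao (1996 bp from the gene end) and Mxi1 (1995 bp), and just outside it those at Tecr (2000.5 bp) and Zfp827 (2001.5 bp). Ets1 has no member, since no shared acetylated region had its midpoint within 2 kb of its RefSeq ends.

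ETS1 peaks sat slightly downstream of the start. The 5413 starts with a RefSeq promoter entry at a member were profiled in steps of 50 bp. Of these steps, the one 100 bp after the start was most often under an ETS1 peak in every library. It was under a peak in 91.6% and 68.8% of starts in KO cells against 81.0% and 90.2% in WT cells. The median distance of the nearest ETS1 peak midpoint from the start was 83.5 and 66.3 bp downstream in KO cells against 65.0 and 93.5 bp in WT cells. At 1000 bp before the start, the share under an ETS1 peak was 6.96% and 4.45% in KO cells against 5.39% and 9.44% in WT cells. H3K27ac was centred near the same point, with median midpoints of 126.5 and 119.5 bp in KO cells against 127 and 126 bp in WT cells. CTCF peaks covered the start itself in 87.2% and 84.9% of cases in KO cells against 63.9% and 63.3% in WT cells. KO shares were also higher at the 338 starts at ends without ETS1 in WT. CTCF covered 57.7% and 51.2% of these in KO cells against 31.4% and 31.4% in WT cells.

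**Figure D2:**
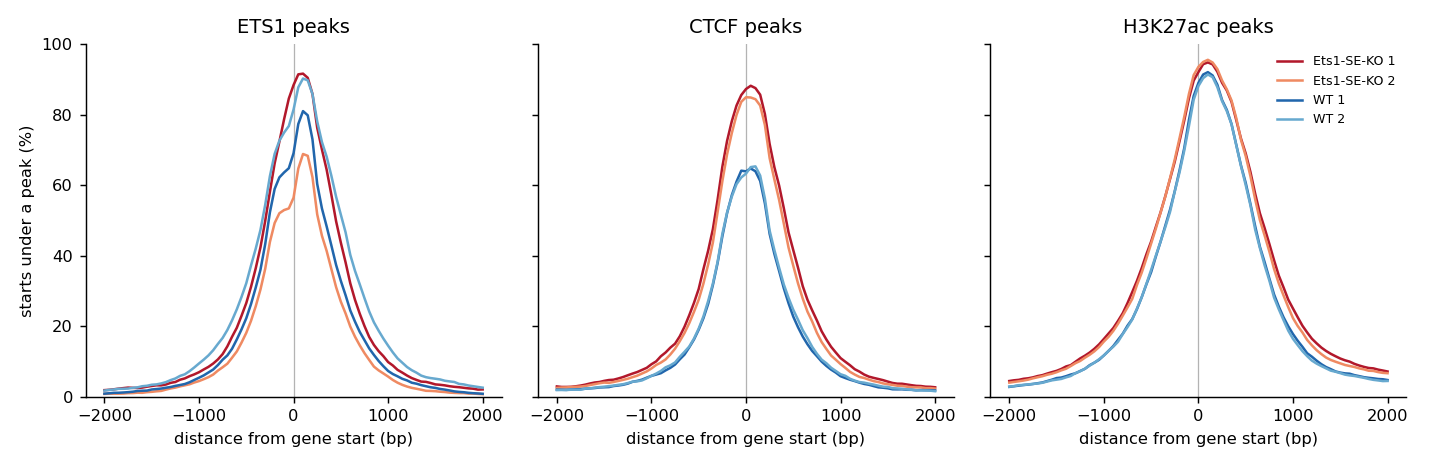
Percentage of 5413 starts at ETS1-bound acetylated ends that lie under a peak, by distance from the start in steps of 50 bp (downstream positive), for ETS1, CTCF and H3K27ac. Each line is 1 library; ETS1 is highest at 100 bp in all 4 libraries, and CTCF at the start is 87.2% and 84.9% in Ets1-SE-KO cells against 63.9% and 63.3% in WT cells.

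The ETS motif was common at these starts. CCGGAA on either strand occurred between 250 bases before and 50 bases after the start in 1970 of 5413 member promoters (36.4%), in 31.5% of 1046 promoters at ends with ETS1 in 1 WT library and in 28.7% of 338 at ends without it. All 17492 protein-coding promoters in the reference gave 19.3%, and the 10696 of genes with no shared acetylated region at a start gave 9.17%. The share was 30.7%, 34.7%, 39.8% and 39.5% over the 4 ETS1 classes from lowest to highest. The longer CCGGAAG was found in 24.3% of member promoters and 19.2% of those at ends without ETS1. The GGAA core alone was near universal, at 95.8% and 97.0%. Matches began most often in the first 10 bases after the start (4.23% of member promoters), with 3.90% in the 10 bases before it and 0.536% in the farthest 10 bases upstream. Promoters of the other classes were also highest near the start. Ends without ETS1 had 4.14% from 20 to 10 and 4.14% from 10 to 0 bases before it. Genes with no shared acetylated region at a start had 0.701% in the 10 bases before it.

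Base composition moved with these shares. Median GC content was 63.0% in member promoters, 59.0% at ends without ETS1 and 51.3% at genes with no shared acetylated region at a start, and the CpG observed-to-expected ratio 0.83, 0.70 and 0.30; the part of composition in the motif shares was not tested. GGGCGG, bound by SP and KLF factors, followed the same order at 72.8%, 58.0% and 31.4%, and so did GCATGCG, bound by NRF1, at 8.09%, 7.99% and 2.33%. ATGGCGG, bound by YY1, was in 11%, 9.17% and 2.21% of these promoters. CCAAT, bound by NFY, was in 39.0%, 34.9% and 38.9%. TGTGGT, bound by RUNX factors, had the opposite order at 10.8%, 15.4% and 17.4%, and TATAAA, the TATA box, was in 5.10%, 5.92% and 18%. CREB and ATF factors bind TGACGT, which was in 14.5%, 11.2% and 5.09%, and the E-box CACGTG was in 11.2%, 8.28% and 5.96%. CTACAAT, part of the ZNF143 site, was in 2.09%, 1.18% and 2.33%. All letters were searched on both strands, CCGGAAG contains CCGGAA, and a match is a description of the letters alone.

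**Figure D3:**
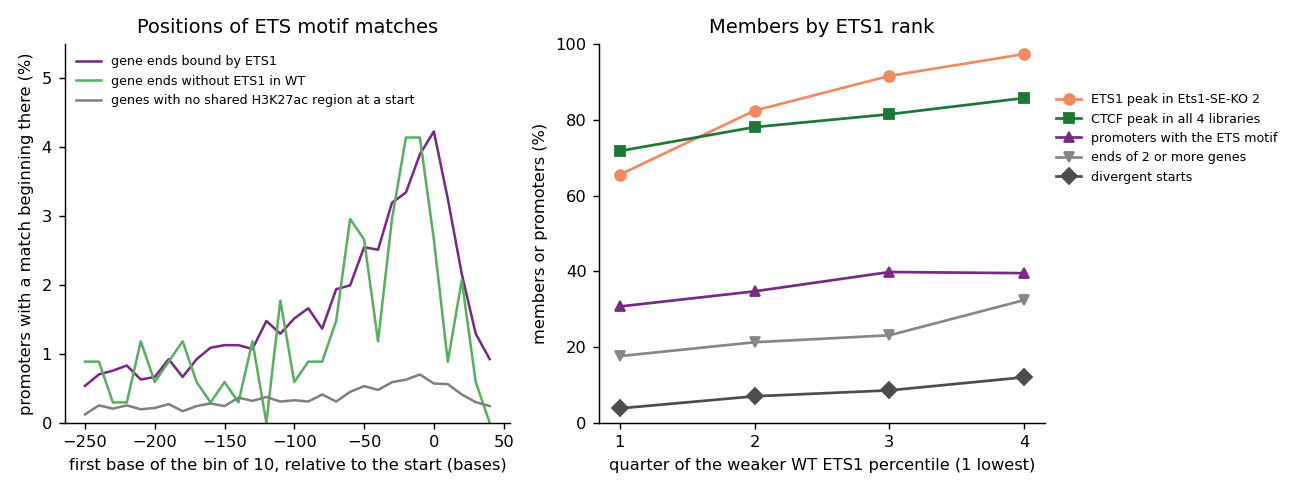
Left, percentage of promoters with a match to the ETS motif beginning in each bin of 10 bases, by distance from the start, for ETS1-bound gene ends, gene ends without ETS1 in WT and genes with no shared H3K27ac region at a start; the first peaks at 4.23% in the bin after the start. Right, 5 shares in members divided into 4 classes by the weaker WT ETS1 percentile; the ETS1 share in Ets1-SE-KO library 2 is 65.5% in class 1 and 97.4% in class 4.

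CTCF peaks were called at most members when whole lists were used. All 4 CTCF libraries had a peak at 4666 members (79.2%), where all shared acetylated regions gave 49.4%, ends with ETS1 in 1 WT library 52.7% and ends without it 24%. These classes differ in position, since 96.8% of members but 55.3% of ends without ETS1 lay nearest to a start. The part of position in the CTCF shares was not tested. No CTCF library had a peak at 70 members (1.19%, against 23.7% of all shared regions). With the upper 50% of each list by −log10 p, members chosen anew had CTCF in all 4 libraries in 35.8% of cases. The peaks were of middling rank, with median percentiles of 63.8 and 61.6 in the KO lists against 49.2 and 47.9 in the WT lists, and members held 19.8% and 19.6% of the top 10% of the KO lists against 11.5% and 11.8% of the WT lists. A CTCF peak above percentile 90 in all 4 libraries was present at 265 members (4.50%), against 3.02% of all shared regions and 4.88% of distal bound regions. Among the highest were those at Pex7, the receptor for peroxisomal import of proteins with a type 2 signal, Dtwd2, Ccdc88c, Fmo5, Tor2a, Pts, Def8, Srd5a3 and E130311K13Rik. At Pex7 the CTCF percentile was above 99.9 in every library and the ETS1 percentile was 99.8 and 99.1 in KO cells against 99.0 and 99.9 in WT cells.

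CTCF peaks covered more of the members in KO cells. They covered 5.08 and 4.70 Mb in KO cells against 3.34 and 3.43 Mb in WT cells, a log2 ratio of 0.53 (exact two-sided permutation p = 0.333), and the libraries of the 2 genotypes did not overlap. Over all shared acetylated regions the log2 ratio was 0.58, and the CTCF lists themselves were longer in KO cells. Length was greater in both KO than in both WT libraries at 3722 members (63.2%, against 42.5% of all shared regions), and the reverse held at 70 (1.19%, against 1.3%). Regions without a CTCF peak cannot enter either count, and fewer members than other regions lacked one. The share of the CTCF length of all shared regions that lay in members was 57.8% and 59.4% in KO cells against 60.6% and 60.5% in WT cells (exact two-sided permutation p = 0.333).

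H3K27ac was longer in KO cells at the members too. Peaks covered 8.19 and 8.02 Mb of the members in KO cells against 6.92 and 6.79 Mb in WT cells, a log2 ratio of 0.24. Both KO libraries lay above both WT libraries, and no test is given because H3K27ac calls of these libraries chose the regions. The log2 ratio was 0.30 over all shared regions, 0.43 at ends without ETS1 in WT and 0.22 at distal bound regions. Members held a smaller share of the acetylated length of all shared regions in KO cells, 34.7% and 34.3%, than in WT cells, 35.9% and 35.8%. Covered length was greater in both KO than in both WT libraries at 3118 members (53.0%, against 48.5% of all shared regions) and smaller in both at 258 (4.38%, against 7.89%). The median log2 ratio over members, after adding 100 bp to each length, was 0.15, against 0.19 over all shared regions.

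The greatest gains of covered length among the 3118 included those at Ccr7 and Bcl2. At Ccr7, the chemokine receptor of naive and central memory T cells, H3K27ac covered 5017 and 5604 bp in KO cells against 745 and 1082 bp in WT cells. At Bcl2, the anti-apoptotic gene, it covered 6319 and 4587 bp in KO cells against 2043 and 2361 bp in WT cells. The groups did not overlap at either of these, as the choice of regions required. Cd200, Safb, Ccnd2, which encodes cyclin D2, Sphk2, Rnps1, Aars and Rack1 were also among the 10 greatest, with log2 ratios between 0.73 at Sphk2 and 2.06 at Rack1.

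The greatest losses among the 258 included Orai1, the pore of the store-operated calcium channel, Thy1, a surface glycoprotein of T cells, and Smad3, a transducer of TGF-beta signals. At Orai1, H3K27ac covered 2465 and 3019 bp in KO cells against 3523 and 4898 bp in WT cells. At Thy1 it covered 2008 and 2175 bp in KO cells against 3603 and 3408 bp in WT cells. At Smad3 it covered 276 and 751 bp in KO cells against 1763 and 1300 bp in WT cells. Unc13a, Snx18, Srgap3, Sema7a, Slc17a9 and B3gnt3 were also among the 10 greatest losses, with log2 ratios between -2.34 at Srgap3 and -0.33 at Slc17a9. ETS1 peaks were still called at Orai1 in KO cells, at percentiles 99.0 and 96.9 against 98.2 and 98.1 in WT cells, whereas Srgap3 had none in KO library 2.

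**Figure D4:**
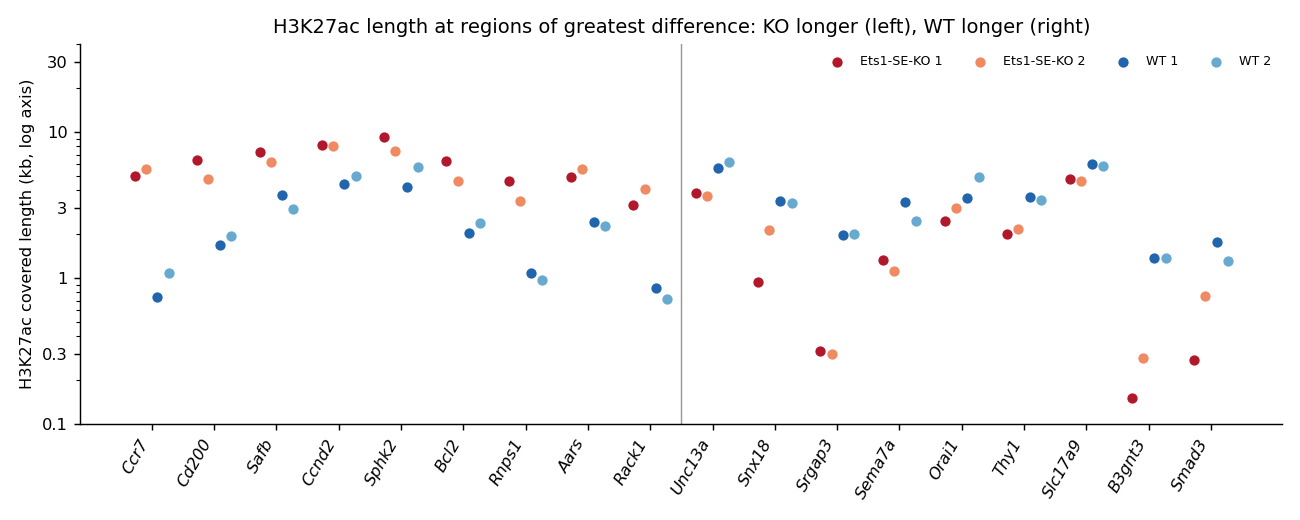
Length covered by H3K27ac peaks, in kb on a log axis, at the reported member regions among the 10 with the greatest length excess in Ets1-SE-KO cells (left) and among the 10 with the greatest excess in WT cells (right). Points are single libraries; the genotypes do not overlap because regions were chosen that way, and Ccr7 has 5017 and 5604 bp in Ets1-SE-KO cells against 745 and 1082 bp in WT cells.

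Members lay at 7026 of 21887 protein-coding genes (32.1%), and at 78.2% of the 8982 genes with an acetylated end. Among genes of translation, 32 of 33 initiation factors, 58 of 76 cytosolic ribosomal proteins, 60 of 78 mitochondrial ribosomal proteins and 15 of 20 aminoacyl-tRNA synthetases had a member. The best ranked were Rplp2, Rps14, Mrpl47, Mrps28, Eif3e, which encodes a subunit of the eIF3 scaffold, Eif2s2, the beta subunit of eIF2, and the synthetase genes Farsb and Sars. At Rplp2 the ETS1 percentile was 99.8 and 99.5 in KO cells against 99.6 and 99.8 in WT cells. At Eif3e it was 97.8 and 94.2 in KO cells against 97.4 and 99.4 in WT cells.

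Members also lay at 10 of 12 RNA polymerase II subunits, 28 of 37 spliceosome proteins, 34 of 44 genes of DNA replication and repair, 53 of 78 subunits of oxidative phosphorylation, 26 of 39 proteasome subunits, 25 of 39 ubiquitin E1 and E2 enzymes and 20 of 22 genes of autophagy and the lysosome. Mediator, with 16 of 30, was the lowest of these housekeeping lists. Lig1, the replicative DNA ligase, ranked at percentiles 99.6 and 99.8 in KO cells against 99.7 and 99.9 in WT cells. Brca1, Psmd5, Med11 and Atg12 had weaker WT percentiles between 95.9 and 99.5. Broadly expressed genes are acetylated at their ends in most cells, so the counts are also given over acetylated genes alone: 81.7% for cytosolic ribosomal proteins, 87.0% for mitochondrial ones, 97.0% for initiation factors, 78.9% for tRNA synthetases, 90.9% for RNA polymerase II, 87.2% for replication and repair, 95.2% for autophagy, 78.8% for the proteasome, 77.8% for the spliceosome, 73.6% for oxidative phosphorylation, 73.5% for ubiquitin enzymes and 61.5% for Mediator, against 78.2% overall. On that basis the proteasome, synthetase and spliceosome lists were near the share of all acetylated genes, and the last 3 were below it.

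Of 30 genes of T cell receptor signalling 17 had a member (73.9% of the acetylated ones, against 78.2% of all acetylated genes), and all 17 had an ETS1 peak in both KO libraries, as did 83.8% of all members. Cblb, a ubiquitin ligase that restrains activation, ranked at percentiles 96.1 and 86.8 in KO cells against 95.6 and 95.8 in WT cells, and Bcl10, an adaptor to NF-kappaB, at 98.8 and 96.5 in KO cells against 94.4 and 96.0 in WT cells. Of 29 Th1 genes 8 had a member (27.6%, against 32.1% of all genes), which was 50% of the 16 acetylated. Tbx21, the gene of the Th1 master regulator T-bet, had percentiles of 59.3 and 34.6 in KO cells against 72.2 and 55.8 in WT cells. The medians over members with a peak were 90.7 and 64.5 in KO cells against 71.5 and 82.0 in WT cells. Id2, Il2rb, Hlx and Il12rb1 were also members. Il18r1, Gzmb, Nkg7, Fasl and Il2ra had an ETS1 peak in 1 WT library at their acetylated ends, and Il12rb2, Ifngr2 and Eomes in none. Members were also at 6 of 11 naive and memory T cell genes, led by Satb1, Lef1 and Bach2. They were at 4 of 22 genes of the Th2, Th17, Treg and Tfh lineages and at 10 of 15 RUNX, Ikaros and other T cell factors. Over acetylated genes alone these 3 lists gave 66.7%, 57.1% and 83.3%, against 78.2% of all acetylated genes.

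Of 26 ETS family genes 7 had a member (26.9%, against 32.1% of all genes), which was 70% of the 10 acetylated, against 78.2% of all acetylated genes. Gabpa, Etv6, Ets2, Elf1, Elf2 and Elk4 were the best ranked. All 7 had ETS1 peaks in both KO libraries and CTCF peaks in all 4 libraries, as did 83.8% and 79.2% of all members. Other lists differed in this. ETS1 peaks in both KO libraries were at 4 of 10 regions of RUNX, Ikaros and other T cell factors, the lowest share of the lists with a member. They were at 6 of 10 regions of RNA polymerase II and 11 of 16 of Mediator, but at 52 of 58 of cytosolic ribosomal proteins. The median weaker WT ETS1 percentile was 27.9 for the RUNX and Ikaros list, against 75.4, 76.2 and 74.0 for these 3 lists. Of all members, the lowest class by that percentile had a peak in KO library 2 in 65.5% of cases, the highest in 97.4%. The part of WT rank in these list shares was not tested. Runx1, a partner factor of T cell development, had an ETS1 percentile of 9.73 in KO library 1 and no peak in KO library 2, against 50.3 and 58.9 in WT cells. Of lists of other lineages, 1 of 10 B cell markers, 2 of 8 erythroid markers, 0 of 10 myeloid markers and 0 of 18 non-haematopoietic markers had a member, against 32.1% of all genes. Few of these markers were acetylated at an end, namely 1, 2, 1 and 1 genes in that order. The acetylated B cell and erythroid markers were thus all at members, against 78.2% of all acetylated genes. The B cell marker is Cd79a, whose member region lies nearer to Arhgef1, and the erythroid ones are Tfrc and Klf1.

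**Figure D5:**
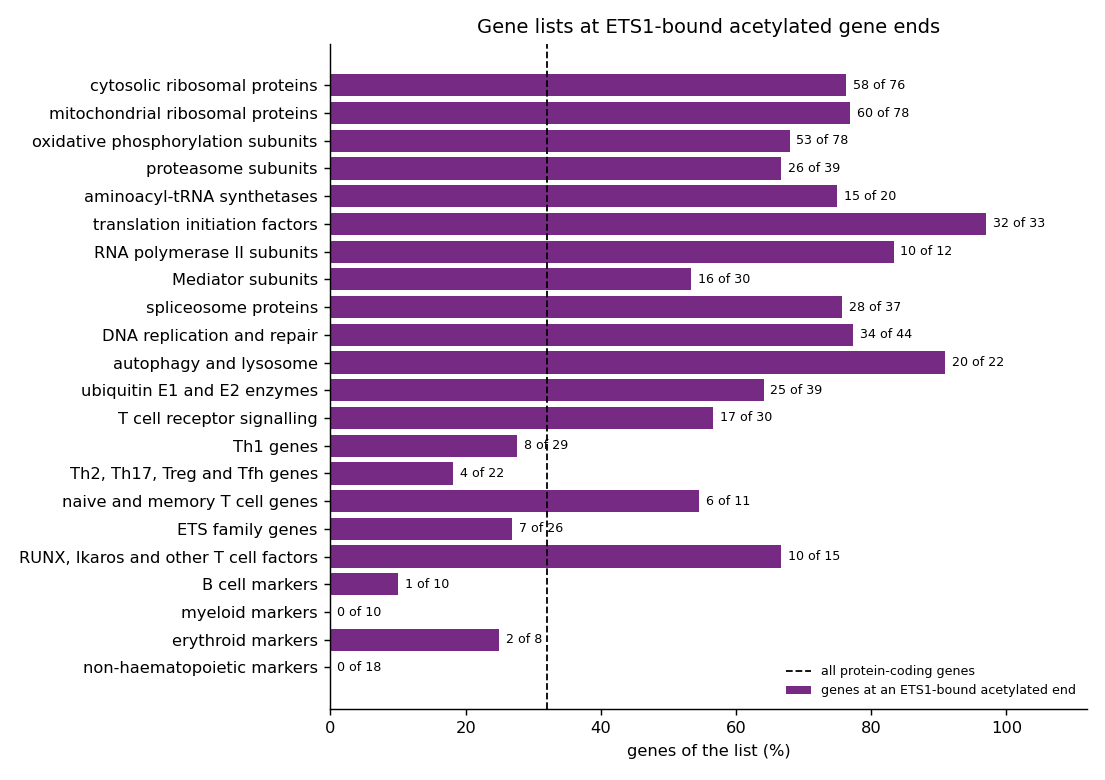
Percentage of the genes of each of 22 lists with an ETS1-bound acetylated region at either end, with the number of genes beside each bar; the dashed line is the 32.1% of all protein-coding genes. Translation initiation factors are at 97.0% and Th1 genes at 27.6%.

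H3K27ac length at member regions of the lists followed the general excess in KO cells to differing degrees. At cytosolic ribosomal protein genes it summed to 116.9 and 109.1 kb in KO cells against 80.0 and 78.1 kb in WT cells, with greater length in both KO than in both WT libraries at 44 of 58 regions and the reverse at 1, where all shared regions gave 48.5% and 7.89%. The median log2 ratio of these 58 was 0.38, against 0.19 over all shared regions. At proteasome genes the sums were 39.9 and 39.9 kb in KO cells against 31.1 and 31.7 kb in WT cells, with 18 of 26 regions higher in both KO libraries. At Th1 genes they were 32.5 and 32.3 kb in KO cells against 29.3 and 25.3 kb in WT cells, with 2 of 8 regions higher in both KO libraries. At naive and memory T cell genes they were 21.2 and 24.2 kb in KO cells against 15.6 and 15.2 kb in WT cells, with 4 of 6 higher. Rpl30 covered 2215 and 1910 bp in KO cells against 1602 and 1466 bp in WT cells, whereas Rps14 covered 1978 and 1933 bp in KO cells against 2044 and 2025 bp in WT cells. Lck, the kinase that starts T cell receptor signalling, covered 5873 and 5532 bp in KO cells against 3191 and 3501 bp in WT cells. Atg7, an activating enzyme of autophagy, covered 731 and 663 bp in KO cells against 171 and 145 bp in WT cells. Ndufa11 went the other way, with 693 and 763 bp in KO cells against 1280 and 1318 bp in WT cells.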

How the data were processed

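Peak lists of 14 CUT&RUN libraries were used. Alignment used BWA and the build GRCm38, per the submitters' processing notes, and each list belongs to 1 library. Not given in the sources used here are versions and peak-calling options. Per peak, a deposited list gives a score, a fold ratio over background, and −log10 p and −log10 q, all written by the authors' peak caller and used here only to rank peaks within a list. No list holds read counts, so depth is unknown and no counting interval is given.

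Peaks were merged at 1 bp overlap, and members were chosen by the rule stated in the report. Covered length is the sequence of a region under peaks of a library; log2 ratios are KO mean over WT mean, per region after adding 100 bp. Exact two-sided permutation tests over libraries are given for CTCF, whose calls had no part in the rule; those planned for H3K27ac and ETS1 are not reported. Genes, strands and promoters (250 bases before to 50 after a start) came from RefSeq, GRCm38.p6; no genome was used, so peak sequences were not read and motifs were counted in 17492 promoters. Of the entries in 22 gene lists, 1 had no match. Regions named in the text were the 10 with the best weaker WT ETS1 percentile, the 10 greatest gains and losses of H3K27ac length among non-overlapping regions, the 10 best without ETS1 in KO, the 10 with the highest lowest CTCF percentile, those nearest the 2 kb limit, and up to 6 genes of each list by ETS1 percentile; from these, further examples were chosen after their values were seen. A few regions that these criteria pick are not reported here. Printed promoters were taken from the first and last of these groups. The members and gene lists were chosen with earlier results of these data known. Overlap code was tested on simulated intervals. Python 3.11.15, numpy 2.4.6, pandas 2.3.3 and matplotlib 3.10.9 were used.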

Additional observations from a re-analysis of the deposited data

How the results depend on the processing

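Members numbered 5301 at 1 kb and 6409 at 5 kb, 5691 when peaks had to lie in the region for 50% of their length, 4548 with lists of one antibody trimmed to equal length, 5230 when the region had to overlap a gene end itself (an alternative chosen after seeing the data) and 3779 with the upper 50% of each list. With the upper 50% of each list, ETS1 in both KO libraries was at 68.7% of members, CTCF in all 4 libraries at 35.8%, ends of 2 or more genes at 25.6%, the motif at 38.8%, and 2047 members had more H3K27ac in both KO libraries. With lists of equal length, ETS1 in both KO libraries was at 85.1%, ends of 2 or more genes at 25.2% and the motif at 38.1%. ETS1 in both KO libraries was at 82.6% within 5 kb and 84.8% where regions overlapped a gene end. CTCF in all 4 libraries was at 74.9% under the 50% overlap. Ends of 2 or more genes were at 20.2% within 1 kb and 34.2% within 5 kb. The motif share was 95.8% for the core, 24.3% for the letters with a further G, and 23.5% in the 150 bases before the start.

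Leaving out 1 library at a time gave 5897 to 7155 members, ETS1 in the remaining KO libraries at 75.5% to 98.9%, CTCF in all remaining libraries at 79.3% to 85.2%, ends of 2 or more genes at 22.5% to 23.7%, the motif at 35.7% to 36.3%, and 3914 to 4080 members with more H3K27ac in KO cells. The log2 ratio of H3K27ac length stayed between 0.22 and 0.26 and that of CTCF length between 0.47 and 0.58. That of ETS1 length, -0.19 with all libraries, ranged from -0.53 to 0.09: it was 0.0369 without WT library 2 and 0.0866 without KO library 2, so its direction changed with those libraries. Because members were chosen by WT and not by KO ETS1 peaks, this ratio is not independent of the rule and is a description. The log2 ratio of CTCF length, 0.53 with whole lists, was 0.92 with the upper 50% of each list and 0.44 with lists of equal length. The numbers of the libraries only name them, technical in WT and biological in KO; with them as a replicate block the ratios were 0.24 for H3K27ac, -0.20 for ETS1 and 0.53 for CTCF. The H3K27ac differences of the regions named for gains and losses kept their direction with lists of equal length and, where a peak remained, with the upper 50% of each list (also chosen after seeing the data); leaving out 1 library cannot turn them, as the choice of regions fixes it. The unknown depth limits what absence of a peak can mean.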
